A study of Homo sapiens with 12 samples.

Results

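The genes of the CDK inhibitors and of the RB pocket proteins were described across 12 microarrays of BT549 cells, a human triple-negative breast cancer cell line. A member was any of 10 named genes (CDKN1A, CDKN1B, CDKN1C, CDKN2A, CDKN2B, CDKN2C, CDKN2D, RB1, RBL1 and RBL2) read by a transcript cluster, the set of probes summarised into 1 value, that the array's annotation gives to that gene alone. The choice used names and no measured change. Of the 10 members 8 were read, among 17958 genes in all. CDKN2C was paired with no cluster, and the cluster of RBL2 is annotated to AKTIP as well, so both genes are not analysed here.

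Each of the 4 groups had 3 arrays, described by the submitters as biological replicates, and all were BT549 cultures under a transient transfection, so each group may mix transfected and untransfected cells of 1 line. In the overexpression experiment, cells received pcDNA3 with FLAG-tagged ERβ2 cDNA (ERβ2 plasmid) or the pcDNA3 empty vector (EV), and RNA was taken after 24 h. In the knockdown experiment, cells received siRNA against ERβ2, the ERβ2 siRNA group, or control siRNA, and RNA was taken after 48 h. The study's methods describe more than 1 set of ERβ2 siRNAs and do not say which was used for the arrays. ERβ2 is a splice isoform of estrogen receptor β that differs from the full-length receptor at its C-terminal end.

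CDK inhibitors are the brakes of the cell cycle. The CIP/KIP proteins p21 (CDKN1A), p27 (CDKN1B) and p57 (CDKN1C) bind complexes of cyclins with CDK2 and other kinases, whereas the INK4 proteins p16 (CDKN2A), p15 (CDKN2B) and p19 (CDKN2D) bind CDK4 and CDK6 and keep D-type cyclins off them. Held in check by the inhibitors, these kinases leave the pocket proteins RB (RB1) and p107 (RBL1) unphosphorylated, and in that state they bind E2F factors and keep genes of DNA replication off. In breast cancer this pathway is often broken, and BT549 is known as a line without functional RB protein.

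To show which promoters the findings concern, 120 bases before the start of transcription are printed for the 5 members on which the results turn, from RefSeq on GRCh38.p14, 5′ to 3′ on the strand of the gene. CDKN1A and CDKN2D changed most upon ERβ2 knockdown, CDKN1B and CDKN2B differed between both control transfections, and RBL1, known as an E2F target, passed in no comparison. Capitals mark matches, on either strand, to 4 motifs: the GC box bound by Sp1 (GGGCGG), an E2F-like motif (TTTNNCGC), the CCAAT box (CCAAT) and the cell cycle homology region (TTTGAA).
CDKN1A (chr6:36678594-36678713, plus strand): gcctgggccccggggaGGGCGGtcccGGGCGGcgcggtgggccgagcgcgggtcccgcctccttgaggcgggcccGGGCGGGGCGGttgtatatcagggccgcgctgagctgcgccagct
CDKN2D (chr19:10568980-10569099, minus strand): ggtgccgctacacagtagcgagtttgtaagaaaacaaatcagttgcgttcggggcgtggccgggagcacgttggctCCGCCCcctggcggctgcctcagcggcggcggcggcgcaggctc
CDKN1B (chr12:12717248-12717367, plus strand): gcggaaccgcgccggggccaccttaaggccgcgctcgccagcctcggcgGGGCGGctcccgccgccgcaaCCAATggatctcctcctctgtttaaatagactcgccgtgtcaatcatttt
CDKN2B (chr9:22009306-22009425, minus strand): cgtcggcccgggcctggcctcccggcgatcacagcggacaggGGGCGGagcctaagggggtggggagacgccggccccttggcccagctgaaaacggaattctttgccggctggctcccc
RBL1 (chr20:37095998-37096117, minus strand): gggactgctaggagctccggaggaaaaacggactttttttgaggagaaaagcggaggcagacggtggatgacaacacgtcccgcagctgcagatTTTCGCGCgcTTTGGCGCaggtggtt

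The motifs were searched in the 250 bases before the start, where 7 of the 8 measured members had an entry in the promoter table, CDKN1C being the exception. CDKN1A held 4 GC boxes, the last 2 of which share a base. CDKN2D held 2 GC boxes, 1 E2F-like match and 1 CCAAT box, CDKN1B held 1 GC box and 2 CCAAT boxes, and CDKN2B held 2 GC boxes. RBL1 held 2 E2F-like matches, side by side in the stretch shown, and no other motif. Among 35116 promoters of the same length, 42.6% held a GC box, 5.92% an E2F-like match, 32.0% a CCAAT box and 13.3% the cell cycle homology region. No matched base of a member belonged to more than 1 of the motifs. A match describes the letters of the sequence and says nothing of binding.

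The deposited values are on a log2 scale. Array medians over all 33297 transcript clusters lay between 5.04 and 5.14, within a whole range of 2.02 to 13.46. Signals differ in brightness from one probe set to another, so values were compared between groups and not between genes. Of the markers of BT549, VIM averaged 12.03 to 12.25 and FN1 10.9 to 11.5 in the 4 groups, while ESR1, PGR, CDH1 and EPCAM averaged between 3.43 and 4.07, under the array medians. ERBB2, which is low in triple-negative cells, had means of 7.90 to 8.10, above the array medians, and CDH2 had means of 8.86 to 9.26. ESR2, the gene of all ERβ isoforms, is read by a cluster that does not separate them. It differed by −0.02 between ERβ2 siRNA and control siRNA (adjusted p = 0.913, limma), which gives no check of the siRNA labels. Its values in both siRNA groups were 3.80 to 4.12, under the array medians. With the ERβ2 plasmid its values were 4.35, 4.72 and 4.37, against 4.08, 3.93 and 4.01 with EV. All ERβ2 plasmid arrays lay above all EV arrays, the way the labels say, with a difference of 0.47 that ranked 17 by size among all genes (unadjusted p = 0.00167, adjusted p = 0.449, limma). The effect of the siRNA minus that of the plasmid on ESR2 was −0.49 (adjusted p = 0.0328), nearly all of it from the 0.47 of the plasmid. EV replicate 2 had the lowest mean correlation with the arrays of its own group, 0.997.

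Below, a gene passed when its adjusted p from limma, over all 17958 genes, was at most 0.1, and it was called when it also changed at least 1.5-fold at an unadjusted p under 0.05. Changes are log2 differences of group means with their standard error (SE). Since the RNA came from whole cultures, a change in the number of cells in a given state cannot be told apart from a change of RNA per cell.

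Upon ERβ2 knockdown the CDK inhibitors did not move as a family. CDKN1A rose 1.53-fold, CDKN2D fell 1.52-fold and CDKN1C fell by 0.23 on the log2 scale, while CDKN1B, CDKN2A, CDKN2B, RB1 and RBL1 did not pass. Thus 1 of 8 members rose and 2 fell, against 18.3% of all genes that rose and 17.5% that fell, and 2 of 8 were called, against 4.52% of all genes. When arrays were centred on their medians, taken here and below over the 17958 genes, the share of rises among all passing genes was 27.1% in place of 51.0%. The members' median change was 0.00 and their median absolute change 0.06, against −0.03 and 0.13 over all genes. In 3 members the arrays of both groups did not overlap, which held for 42.4% of all genes.

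Among the CIP/KIP genes, CDKN1A encodes p21, which holds cyclin complexes with CDK2 inactive. Its log2 values were 9.24, 9.19 and 9.14 after ERβ2 siRNA, against 8.63, 8.63 and 8.47 after control siRNA. All ERβ2 siRNA arrays lay above all control siRNA arrays. The change was 0.61 (SE 0.07, 95% confidence interval 0.46 to 0.76, adjusted p = 2.6e-04, limma). It passed in each of 15 alternative analyses, counted here and below by the adjusted p threshold of 0.1. It was under 1.5-fold, at 0.56 after a further quantile normalization, 0.53 with arrays centred on their medians and 0.56 without control siRNA replicate 3.

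CDKN1B encodes p27, an inhibitor of the same complexes that is high in resting cells. Its values were 9.57, 9.60 and 9.62 after ERβ2 siRNA, against 9.57, 9.59 and 9.46 after control siRNA. The groups overlapped, and the difference of 0.06 did not pass (95% confidence interval −0.08 to 0.19, adjusted p = 0.508).

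CDKN1C encodes p57, an imprinted inhibitor of embryonic growth. Its values were 5.95, 6.05 and 5.84 after ERβ2 siRNA, against 6.01, 6.30 and 6.23 after control siRNA. The groups overlapped. The gene fell by 0.23 (SE 0.09, adjusted p = 0.0858), but it passed in only 7 of 15 alternatives, with adjusted p between 0.0233 and 0.294. It no longer passed without ERβ2 siRNA replicate 1 (adjusted p = 0.163) or replicate 3 (0.243), nor without control siRNA replicate 2 (0.236) or replicate 3 (0.200).

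Among the INK4 genes, CDKN2D, whose protein p19 inhibits CDK4 and CDK6 and is known to vary with the phase of the cell cycle, had values of 6.23, 6.11 and 6.15 after ERβ2 siRNA, against 6.98, 6.52 and 6.81 after control siRNA. All ERβ2 siRNA arrays lay below all control siRNA arrays, and the control arrays were spread more widely. CDKN2D fell by 0.61 (SE 0.11, 95% confidence interval −0.85 to −0.36, adjusted p = 0.00376), and it passed in each of 15 alternatives. The fall was under 1.5-fold without control siRNA replicate 1 (−0.50) and just under it without ERβ2 siRNA replicate 2 (−0.58).

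CDKN2A encodes p16 and, from another reading frame, ARF, and its cluster covers transcripts of both. Its values were 10.45, 10.44 and 10.44 after ERβ2 siRNA, against 10.49, 10.50 and 10.51 after control siRNA. The arrays did not overlap, yet the difference was −0.06 and did not pass (95% confidence interval −0.17 to 0.06, adjusted p = 0.440). With the methods' t-test, which uses the spread of each gene alone, the same difference had an adjusted p of 0.0131, and with arrays centred on their medians it was −0.14 (adjusted p = 0.0995).

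CDKN2B, the neighbour of CDKN2A on chromosome 9, encodes p15, an inhibitor induced by TGF-β in epithelial cells. Its values were 8.13, 8.03 and 8.15 after ERβ2 siRNA, against 8.04, 8.15 and 8.19 after control siRNA. The groups overlapped (difference −0.02, 95% confidence interval −0.17 to 0.12, adjusted p = 0.821).

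Of the pocket protein genes, RB1 had values of 4.94, 4.88 and 4.83 after ERβ2 siRNA, against 4.85, 4.83 and 4.80 after control siRNA. All 12 values of RB1 lay between 4.80 and 4.97, under every array median, and the difference of 0.06 did not pass (adjusted p = 0.487). After a further quantile normalization it was 0.15 (adjusted p = 0.0782). RBL1, whose protein p107 pairs mainly with E2F4, had values of 9.11, 9.13 and 9.15 after ERβ2 siRNA, against 9.22, 9.04 and 9.07 after control siRNA, with groups that overlapped (difference 0.02, 95% confidence interval −0.13 to 0.17, adjusted p = 0.846). A second cluster of RBL1, which was dimmer at 3.98 to 4.88, passed in no comparison.

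**Figure D1:**
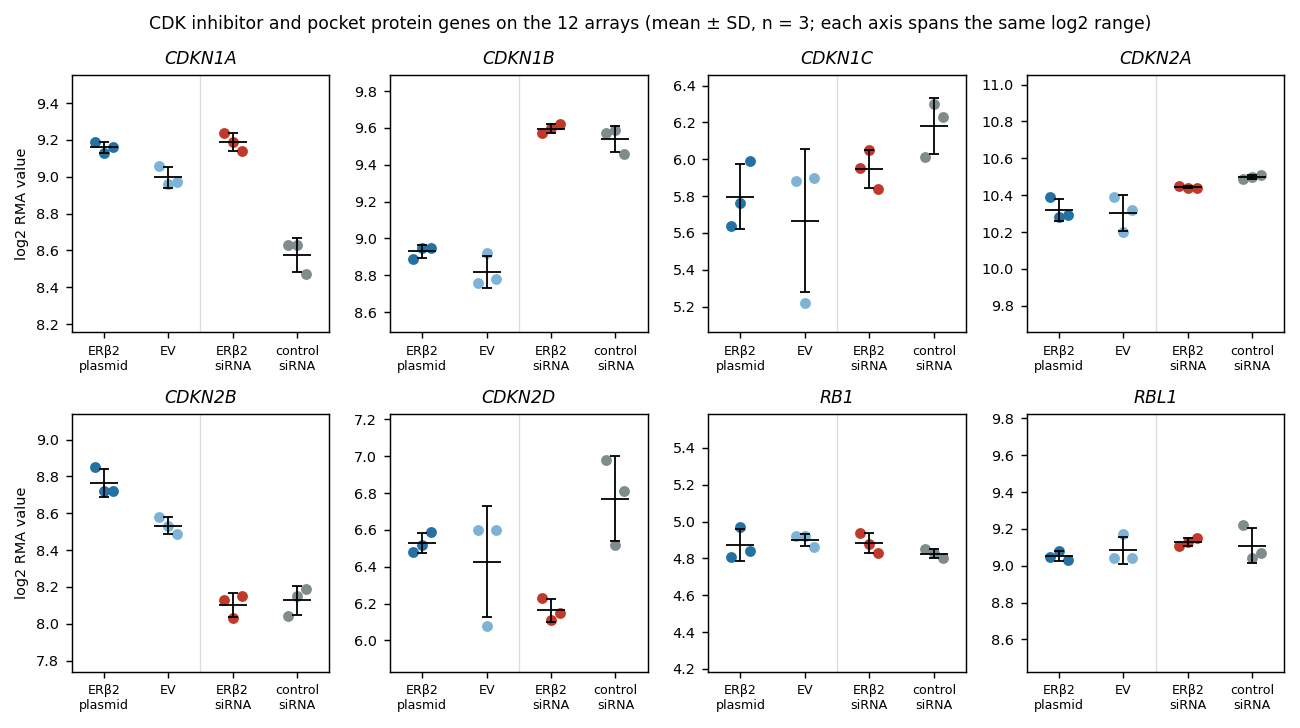
Log2 RMA values of the 8 measured members, with a panel for each gene. Points are arrays, horizontal lines are group means and bars are the SD (n = 3); each vertical axis spans the same log2 range. CDKN1A lay lowest after control siRNA (8.47 to 8.63), and CDKN1B, CDKN2B and CDKN2A separated the plasmid groups from the siRNA groups. For CDKN2A the highest plasmid value was 10.39 and the lowest siRNA value 10.44.

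ERβ2 overexpression gave no change in the CDK inhibitors or pocket proteins that passed the test. With limma 0 of 8 members passed, and 0 passed with the methods' t-test, while 2 had an unadjusted p under 0.05. Over all genes 2 passed, or 0.0111%, and 1260 had an unadjusted p under 0.05. Both members with a small unadjusted p were also the 2 whose arrays did not overlap between the groups, against 12% of all genes.

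CDKN2B had values of 8.85, 8.72 and 8.72 with the ERβ2 plasmid, against 8.58, 8.53 and 8.49 with EV. All ERβ2 plasmid arrays lay above all EV arrays, and the difference was 0.23 (SE 0.06, 95% confidence interval 0.09 to 0.37, unadjusted p = 0.00494, adjusted p = 0.529, limma). CDKN1A had values of 9.19, 9.13 and 9.16 with the ERβ2 plasmid, against 9.06, 8.96 and 8.97 with EV. Here too the arrays did not overlap, with a difference of 0.16 (SE 0.05, 95% confidence interval 0.04 to 0.29, unadjusted p = 0.0171, adjusted p = 0.590, limma).

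The other CIP/KIP genes overlapped between the plasmid groups. CDKN1B had values of 8.89, 8.95 and 8.95 with the ERβ2 plasmid and 8.76, 8.92 and 8.78 with EV, a difference of 0.11 (adjusted p = 0.790). CDKN1C had values of 5.64, 5.76 and 5.99 with the ERβ2 plasmid and 5.88, 5.22 and 5.90 with EV. EV replicate 2 was the lowest of the 12 arrays for CDKN1C, and the difference of 0.13 (adjusted p = 0.916) was −0.09 without that array.

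CDKN2D had values of 6.48, 6.52 and 6.59 with the ERβ2 plasmid and 6.60, 6.08 and 6.60 with EV. EV replicate 2 again stood below the others, and the difference of 0.10 (adjusted p = 0.914) was −0.07 without it. CDKN2A had values of 10.39, 10.28 and 10.29 with the ERβ2 plasmid and 10.39, 10.20 and 10.32 with EV (difference 0.02, adjusted p = 0.979).

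Neither pocket protein gene separated the plasmid groups. RB1 had values of 4.81, 4.97 and 4.84 with the ERβ2 plasmid and 4.92, 4.92 and 4.86 with EV (difference −0.03, adjusted p = 0.954). RBL1 had values of 9.05, 9.08 and 9.03 with the ERβ2 plasmid and 9.04, 9.17 and 9.04 with EV (difference −0.03, adjusted p = 0.940).

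Whether the 2 manipulations acted differently on a member was tested as the effect of ERβ2 siRNA minus the effect of the ERβ2 plasmid, in 1 fit over all 12 arrays. The effects on 3 members differed. That of CDKN1A was higher by 0.45 with the siRNA (SE 0.08, adjusted p = 0.00188), with effects of 0.61 for the siRNA and 0.16 for the plasmid, both above 0. That of CDKN2D differed by −0.71 (SE 0.19, adjusted p = 0.0190), with −0.61 for the siRNA and 0.10 for the plasmid. That of CDKN2B differed by −0.25 (SE 0.09, adjusted p = 0.0548), with −0.02 for the siRNA and 0.23 for the plasmid, and it passed in 15 of 20 alternatives.

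Thus 1 of 8 members passed with a difference above 0 and 2 with a difference below 0, against 15.0% and 11.3% of all genes. With arrays centred on their medians, the share of positive differences among passing genes was 27.2% in place of 57.0%. For CDKN2B the test was not passed without ERβ2 plasmid replicate 1 (adjusted p = 0.129), EV replicate 3 (0.109), ERβ2 siRNA replicate 2 (0.117) or control siRNA replicate 2 (0.105) or 3 (0.121). The differences of CDKN1B, CDKN1C, CDKN2A, RB1 and RBL1 did not pass, the widest being −0.36 for CDKN1C (adjusted p = 0.286).

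**Figure D2:**
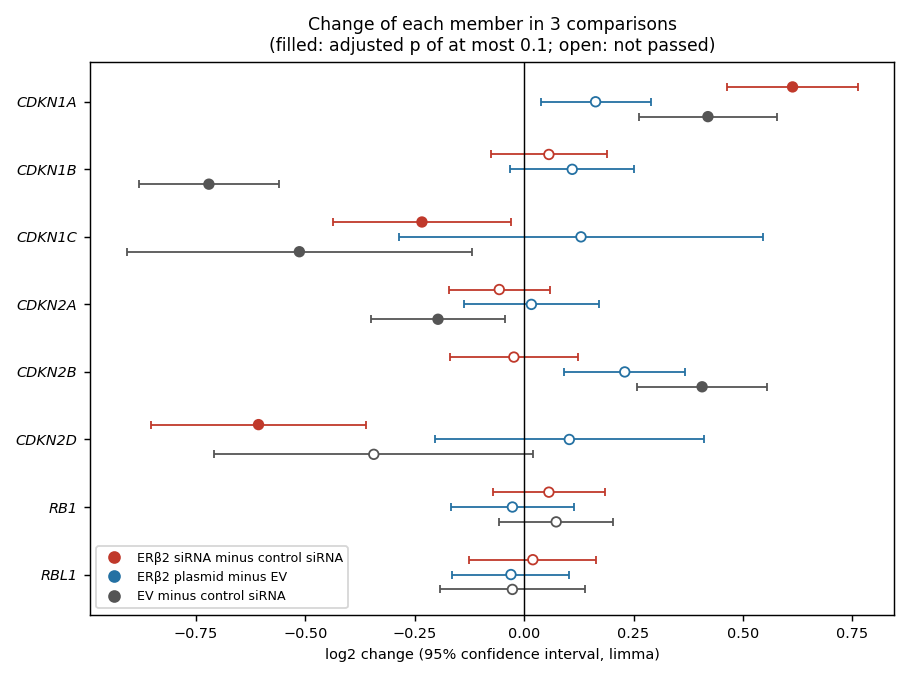
Log2 change of each member with its 95% confidence interval from limma, for ERβ2 siRNA minus control siRNA, ERβ2 plasmid minus EV and EV minus control siRNA (n = 3 arrays in each group). Filled points have an adjusted p of at most 0.1. CDKN1A at 0.61 and CDKN2D at −0.61 stand apart in the knockdown, CDKN1B at −0.72 in the comparison of both controls, and no point of the overexpression is filled.

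The levels of several inhibitors also differed between both control transfections, EV at 24 h and control siRNA at 48 h. These groups differ in time, transfection reagent, nucleic acid and cell density together, whose parts cannot be told apart, and they share their arrays with the comparisons above. CDKN1A and CDKN2B rose, CDKN1B, CDKN1C and CDKN2A fell, and CDKN2D, RB1 and RBL1 did not pass. That made 2 of 8 members that rose and 3 that fell, against 19.2% and 22.4% of all genes, and 1 of 8 called, against 6.87%. The arrays did not overlap in 6 of 8 members, against 47.2% of all genes. The members' median absolute change was 0.38, against 0.16 over all genes. Centring on medians moved all genes by −0.155 here and lowered the share of rises among passing genes to 17.7%, against 46.1% as deposited.

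CDKN1B showed the widest shift, 1.65-fold lower, with 8.76, 8.92 and 8.78 in EV arrays against 9.57, 9.59 and 9.46 in control siRNA arrays. The change was −0.72 (SE 0.07, 95% confidence interval −0.88 to −0.56, adjusted p = 1.3e-04). In order of level, ERβ2 siRNA (mean 9.60) and control siRNA (9.54) overlapped with each other, as did ERβ2 plasmid (8.93) and EV (8.82), and no array of the siRNA groups overlapped with an array of the plasmid groups.

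CDKN2B ran the other way, with 8.58, 8.53 and 8.49 in EV arrays against 8.04, 8.15 and 8.19 in control siRNA arrays, a rise of 0.41 (SE 0.07, adjusted p = 0.00191). CDKN1A rose by 0.42 (SE 0.07, adjusted p = 0.00221), with 9.06, 8.96 and 8.97 in EV arrays against 8.63, 8.63 and 8.47 in control siRNA arrays. The 4 groups of CDKN1A were ordered as ERβ2 siRNA (mean 9.19), ERβ2 plasmid (9.16), EV (9.00) and control siRNA (8.58), of which only the first and second overlapped. Both rises passed in each of 15 alternatives but stayed under 1.5-fold, and after centring they were 0.27 for CDKN1A and 0.25 for CDKN2B.

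CDKN1C fell by 0.51 (SE 0.17, adjusted p = 0.0522), with 5.88, 5.22 and 5.90 in EV arrays against 6.01, 6.30 and 6.23 in control siRNA arrays, and the change was −0.29 without EV replicate 2. It did not pass without control siRNA replicate 2 (adjusted p = 0.146) or replicate 3 (0.122). CDKN2A fell by 0.20 (adjusted p = 0.0532), and no longer passed without EV replicate 2 (adjusted p = 0.105) or 3 (0.106) or without control siRNA replicate 2 (0.121) or 3 (0.128). With arrays centred on their medians it was −0.35 (adjusted p = 0.00823). CDKN2D differed by −0.34 (adjusted p = 0.132) and by −0.17 without EV replicate 2, and it passed in 6 of 15 alternatives, with adjusted p between 0.0196 and 0.338. Among the 6 were the replicate block (0.0196), the fit without control siRNA replicate 2 (0.0772) and median centring, where the difference was −0.50 (0.0270). RB1 differed by 0.07 (adjusted p = 0.348). RBL1 differed by −0.03 (adjusted p = 0.796), and by −0.18 with arrays centred on their medians (adjusted p = 0.0457).

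The partners of the inhibitors and pocket proteins were read from fixed lists. Among 19 genes of cyclins, CDKs and the phosphatases and kinases that activate them, 2 rose and 11 fell after ERβ2 siRNA (median change −0.20, against −0.03 over all genes). For this and the lists that follow, 18.3% of all genes rose and 17.5% fell. CDK6, a target of the INK4 proteins, rose by 1.34 (SE 0.08, adjusted p = 1.8e-05). CDC25A, the phosphatase that switches on CDK2, fell by 0.73 (SE 0.06, adjusted p = 1.0e-04), and CCNB2, a mitotic cyclin, fell by 0.65 (SE 0.06, adjusted p = 1.4e-04). Of the E2F and DP genes, 1 of 11 rose and 6 fell (median −0.20). The 3 widest were E2F2, an activator of S phase genes, which fell by 1.27 (SE 0.07, adjusted p = 1.2e-05), and the repressors E2F8 and E2F7, which fell by 0.52 and 0.39. Of 9 genes of the MuvB core and its MYB and FOXM1 partners, the complex that pocket proteins join in quiescent cells, 0 rose and 6 fell (median −0.20), led by LIN52 (−0.35), FOXM1 (−0.33) and MYBL2 (−0.32).

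Of 13 ubiquitin ligase parts, most of them known to act on p21 or p27, 1 rose and 5 fell (median −0.12). SKP2, which marks phosphorylated p27 for degradation, fell by 0.75 (SE 0.06, adjusted p = 5.2e-05). DTL, the receptor that targets p21 in S phase, fell by 0.47 (SE 0.06), while the scaffold CUL1 rose by 0.25 (SE 0.05). After a further quantile normalization 11 cyclin and CDK genes, 8 E2F and DP genes, 7 MuvB genes and 5 ligase parts fell, against 17.9% of all genes.

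**Figure D3:**
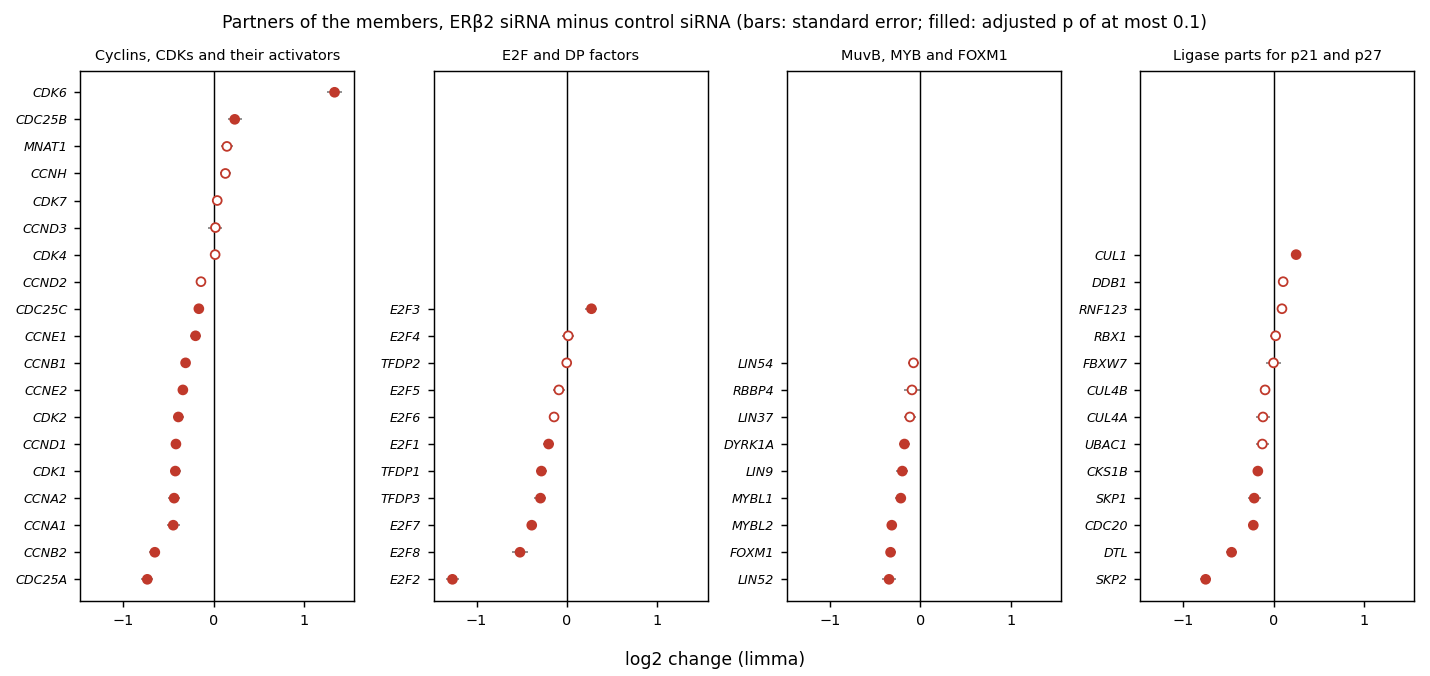
Log2 change of each gene in 4 lists of partners, ERβ2 siRNA minus control siRNA, with a panel for each list. Bars are the standard error from limma (n = 3 arrays in each group), and filled points have an adjusted p of at most 0.1. Most filled points lie below 0, with CDK6 (1.34) farthest above and E2F2 (−1.27) farthest below.

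Regulators of the inhibitors' transcription moved in both directions or little. Among polycomb proteins and other repressors of the INK4 genes, 12 of 16 were measured and 2 rose, TBX3 (0.19) and BMI1 (0.17), with 0 that fell, against 18.3% and 17.5% of all genes. After a further quantile normalization 2 rose and 5 fell, against 17.3% and 17.9% of all genes. Among activators of CDKN1A and CDKN1B transcription, 13 of 15 were measured, and 4 rose and 4 fell, against the same shares of all genes as deposited. ETS2 rose by 0.62 (SE 0.05, adjusted p = 7.1e-05) and ETS1 by 0.38, while the immediate early factor EGR1 fell by 0.51.

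Some of these partners also differed between EV and control siRNA. CDK6 rose there by 1.097 (SE 0.08, adjusted p = 3.2e-05), while SKP2 fell by 0.70 (SE 0.06, adjusted p = 5.9e-05). CCNB2 (log2 change −0.72), MYBL2 (−0.54), FOXM1 (−0.39) and E2F7 (−0.18) passed there as well. CDC25A (−0.07), E2F2 (−0.07), E2F8 (−0.06), LIN52 (−0.02), DTL (0.05) and CUL1 (0.11) did not pass. Of the regulators, mean ETS2 was 11.19 in EV arrays and 10.52 in control siRNA arrays. Mean EGR1 was 10.47 in EV arrays and 8.42 in control siRNA arrays, opposite to its fall after ERβ2 siRNA.

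With the ERβ2 plasmid, 0 of the 77 genes in these 6 lists passed with limma and 0 with the methods' t-test. In limma 7 of the 77 had an unadjusted p under 0.05, against 1260 of all 17958 genes. Between EV and control siRNA, 1 of 19 genes of cyclins and CDKs rose and 6 fell, 2 of 11 E2F and DP genes rose and 5 fell, 1 of 9 MuvB genes rose and 2 fell, and 0 of 13 ligase parts rose and 4 fell. In the same comparison 4 of 12 INK4 repressors rose and 2 fell and 5 of 13 activators rose and 0 fell. Of all genes 19.2% rose and 22.4% fell there. The count of activators that fell depended on the scaling. After a further quantile normalization 5 rose and 5 fell, and with arrays centred on their medians 5 rose and 7 fell. Of all genes 24.6% and 57.4% fell under these 2 scalings.

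The genes whose pattern over the 12 arrays was most like that of a member were found by Pearson correlation, given as a description over arrays that share their groups. For CDKN1A these were SCML1 (r = 0.976), PID1 (0.972) and SFRP2 (0.971). All 3 had log2 changes above 0 upon knockdown, 0.77 for SCML1, 0.79 for PID1 and 1.1 for SFRP2. Genes picked by correlation over these arrays share a member's group differences by construction. Between EV and control siRNA the 3 genes changed by 0.48, 0.51 and 0.72. For CDKN2D the nearest genes were SHMT2 (0.919), CDC42EP1 (0.913) and CLP1 (0.912), with knockdown changes of −0.38, −0.43 and −0.38. Their changes between EV and control siRNA were −0.22, −0.21 and −0.21. For CDKN1C the nearest genes were RYR1 (0.962), TCF23 (0.959) and EDN3 (0.946), with knockdown changes between −0.14 and −0.07. In EV against control siRNA their changes ran from −0.33 to −0.17.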

How the data were processed

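Total RNA from 12 BT549 cultures was measured on arrays of the type Affymetrix Human Gene 1.1 ST. The authors made the deposited log2 values with RMA in the Affymetrix Expression Console (version not given in the sources). The log base, unstated, was assumed to be 2, as in RMA. RMA equalises the arrays' distributions, so a shift of most genes at once would not be seen. The number of arrays limits the precision.

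Of 33297 transcript clusters, 19181 had 1 gene symbol in the platform annotation, 2055 had several and 12061 were not listed. RefSeq (GRCh38.p14) held 19143 of the 19181, and was used for names and promoter sequences. For 895 genes with several clusters the one with the highest mean was used. Each comparison of 3 against 3 arrays was fitted by lmFit and eBayes of limma 3.58.1 (R 4.3.3), with Benjamini-Hochberg adjustment over 17958 genes. The difference of effects was fitted over all 12 arrays. The procedure was tested on simulated data. No label states that replicate numbers pair the samples, and no block was used. Same-number correlations of deviations ran from −0.239 to 0.223, and in the knockdown they were 0.223, 0.143 and 0.0138. With 3 replicates they cannot show whether pairs exist.

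Named were all members, ESR2, from each list up to 3 genes with the widest passing knockdown change, and for each member that passed in the knockdown the 3 genes most correlated with it. The partners given for EV against control siRNA, CDK6 and SKP2 among them, were picked after their values were seen. The members and lists were chosen with earlier results of these data known, and 2 further lists are not reported here. Alternatives covered all clusters, dim genes, scaling, the methods' t-test, the prior, 1 fit, the replicate block, thresholds and each array left out.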

Additional observations from a re-analysis of the deposited data

Results flagged for a closer look

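The response to ERβ2 siRNA differed from the response to the ERβ2 plasmid in 3 members, by a test of the difference itself in limma over 12 arrays. CDKN1A differed by 0.45 on the log2 scale (adjusted p = 0.00188), where both effects were above 0. CDKN2D differed by −0.71 (adjusted p = 0.0190). CDKN2B differed by −0.25 (adjusted p = 0.0548). The siRNA and the plasmid were also read at different times, 48 h and 24 h, so time and manipulation cannot be told apart in these differences.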

How the results depend on the processing

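The count of passing members was 3 upon knockdown, 0 upon overexpression, 5 between EV and control siRNA and 3 for the difference of effects. Between EV and control siRNA it was 3 at an adjusted p under 0.05, 1 with a fold of at least 1.5, and 3 to 5 with an array left out (3 without control siRNA replicate 3). For the difference it was 1 with the fold cut-off. With the replicate block, which pairs arrays of the same replicate number, the counts were 3, 0, 6 and 3. Other alternatives kept the counts within 1.5 times. Of 580 alternative values of single members, 538 stayed on the same side of the threshold, 32 no longer passed and 10 newly passed. The sign turned in 21 of the 580, none of which passed before or after. RB1 gave no value once dim genes (mean under 5) were left out. Centring on medians moved all genes by −0.0867 in the knockdown, 0.0317 in the overexpression and −0.118 in the difference. List counts under other scalings were added after seeing the data. The cause of these shifts was not tested.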
